A study of Mus musculus with 25 samples.

Results

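The comparison described here is that of wild-type (WT) hearts from mice given Ang/PE, a pair of neurohormonal agonists used to provoke hypertrophy, with WT hearts from mice that carried no pump. The hearts were chosen by their titles: 3 are labelled WT Ang/PE and 4 WT no pump, 7 of the 25 hearts in the series. The wider study set WT mice beside mice labelled MCT1KO, which concern the lactate carrier encoded by Slc16a1, to ask how lactate is handled in the hypertrophic heart. Neither WT group carries a stated allele or other agent. Sex, age, strain, dose and length of infusion are not in the labels. The controls had no pump at all, so the agonists cannot be told apart from the implanted pump and its vehicle in this comparison.

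As background, agonists of this kind act on Gq-coupled receptors of the heart muscle cell and its neighbours. In muscle cells the signal runs through calcium, calcineurin and stress kinases and is known for bringing back fetal genes, among them the natriuretic peptides Nppa and Nppb and the slow myosin heavy chain Myh7. In fibroblasts it is known for matrix genes such as Postn, and long exposure is known to accompany lower expression of genes of fatty acid oxidation and the respiratory chain.

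Total counts were 18.4 to 24.9 M reads per heart without a pump and 14.2 to 16.6 M under Ang/PE, and mitochondrially encoded genes took 14.8 to 18.4% and 12.6 to 15.1% of them. Each heart is a separate library. Cardiomyocyte markers were abundant in both groups. The atrial light chain Myl7 stayed at or below 0.27 CPM (counts per 1000000 counts, after TMM scaling). The fat hormone Adipoq stayed at or below 0.146 CPM. Of 10 atrial markers 4 were too low to test, as were 8 of 11 fat markers. Others were well expressed: Tbx5 reached 25.4 CPM in controls, and Fabp4, also an endothelial marker, reached 378 CPM. Dkk3 of the atrial list was at 1.52 to 13.8 CPM in controls and 13.5 to 16.6 CPM under Ang/PE. Slc16a1, intact in all these hearts by label, was at 231, 222, 150 and 206 CPM without a pump and 218, 224 and 202 CPM under Ang/PE. The hearts labelled MCT1KO, used further on, were not lower: Slc16a1 was at 167 to 222 CPM in their 3 controls and 161 to 213 CPM under Ang/PE. Which part of the gene is deleted, and in which cells, is not in the labels, so these counts do not check the genotype label. The sex-linked transcripts were unbalanced. Xist was at 599, 598 and 755 CPM in the 3 Ang/PE hearts, but at 689 and 655 CPM in no pump replicates 2 and 3 and at 0.448 and 0.541 CPM in replicates 1 and 4, which were the hearts with Ddx3y at 100 and 99 CPM. The part of this imbalance in the results below was tested only by the fits with Xist as a covariate or with the Xist-expressing hearts alone.

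No gene passed the test, which took the spread of each gene from all 15 WT and MCT1KO hearts without saline. Of 16991 genes tested with edgeR's quasi-likelihood test, 0 (0%) had an adjusted p below 0.05, and the smallest adjusted p was 0.24. An unadjusted p below 0.05 was reached by 1561 genes (9.19%), of which 646 (3.8%) were higher under Ang/PE and 915 (5.39%) lower. In 667 genes (3.93%) all 3 Ang/PE hearts lay above all 4 controls and in 1182 (6.96%) all lay below. DESeq2 on the same 15 hearts called 26 of 14010 genes (0.186%), 8 higher and 18 lower. Of these, Uty, Eif2s3y and Kdm5d are Y-linked and overlapped between the groups. Values below are therefore given heart by heart, and no gene is said to have risen or fallen in WT hearts. Heart tissue was sequenced in bulk, so fewer cells of a type and less RNA per cell cannot be told apart.

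The hypertrophy genes lay higher in some Ang/PE hearts, with wide intervals. Nppa, which encodes atrial natriuretic peptide, was at 88.6, 72.7, 130 and 59.1 CPM without a pump and at 158, 152 and 313 CPM under Ang/PE. All 3 Ang/PE hearts were above all 4 controls, yet the log2 fold change was 1.25 (SE 1.11, 95% interval -1.19 to 3.69, edgeR adjusted p = 0.77). The interval reaches from below 0 to well above it. It rests on the spread over all hearts in the fit, and does not measure that of the WT hearts alone. In hearts labelled MCT1KO Nppa ran from 20.3 to 464 CPM in controls and from 313 to 5118 CPM under Ang/PE. Its relative Nppb overlapped, with 288, 256, 540 and 199 CPM against 160, 229 and 850 CPM (log2 fold change 0.37).

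Myh7 was at 350, 172, 385 and 244 CPM in controls and 646, 357 and 1449 CPM under Ang/PE, a log2 difference of 1.51 (SE 0.70, edgeR adjusted p = 0.55) that was 0.80 without Ang/PE replicate 3. The second Ang/PE heart lay within the control range. Myh6, the adult myosin heavy chain, differed by 0.27 on the log2 scale, and Atp2a2, the calcium pump of the sarcoplasmic reticulum, by 0.08. Of 18 sarcomere isoform genes tested, 0 had an unadjusted p below 0.05 upwards and 1 downwards (Myl1), beside 3.8% and 5.39% of all genes. Acta1, skeletal actin, was at 126, 272 and 300 CPM under Ang/PE against 84.5 to 196 CPM in controls (log2 fold change 0.76).

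**Figure D1:**
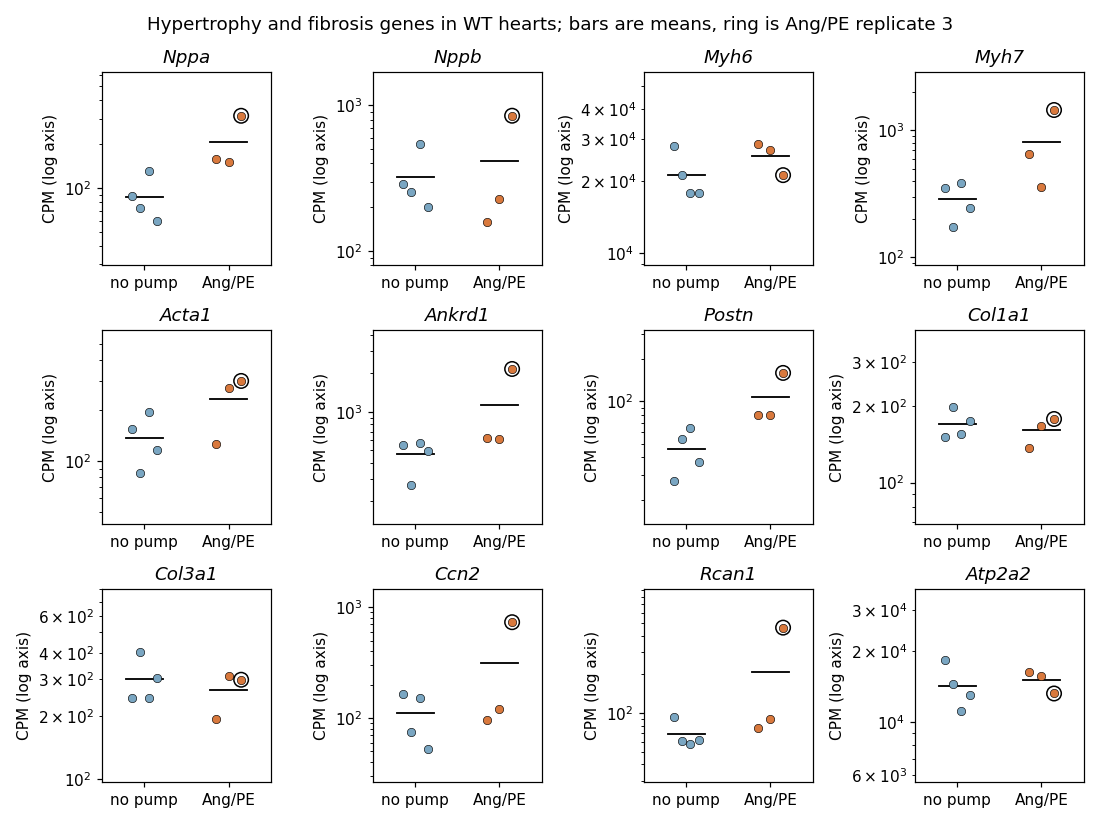
CPM of 12 hypertrophy and fibrosis genes in each WT heart (log axis), with group means as bars and Ang/PE replicate 3 ringed. Replicate 3 is the highest heart for Nppa, Nppb, Myh7, Acta1, Ankrd1, Postn, Ccn2 and Rcan1, while Nppa, Ankrd1 and Postn are the panel genes in which the groups do not overlap.

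Genes of stretch and the Z-disc stood highest in 1 heart. Ankrd1, a titin-linked protein of the stretched sarcomere, was at 550, 267, 575 and 495 CPM in controls and at 623, 611 and 2158 CPM under Ang/PE. The groups did not overlap, but the first 2 Ang/PE hearts were close to the highest control, and the log2 fold change of 1.26 became 0.38 without replicate 3. Xirp2, an actin-binding repeat protein, was at 1401, 1329 and 4958 CPM against at most 1233 CPM in the controls. Of 21 Z-disc, titin and stretch genes tested, 6 had an unadjusted p below 0.05 and all 6 were higher, beside 3.8% of all genes. Without replicate 3 it was 1 of 21, beside 1.91% of all genes, and 3 of 21 lay above all controls, beside 8.21%. Their median log2 fold change was 0.35 with all hearts and 0.11 without replicate 3, where the median over all genes was -0.0057.

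Rcan1, a feedback inhibitor and readout of calcineurin, was at 94.1, 60.4, 58 and 61.6 CPM in controls and at 77.3, 90.4 and 462 CPM under Ang/PE. The log2 difference was 1.62 with all hearts (SE 0.54, adjusted p 0.48 in edgeR) and 0.29 without replicate 3. Of 30 genes of calcineurin, CaMKII and Gq signalling, 2 had an unadjusted p below 0.05, both higher, beside 3.8% of all genes: Rcan1 and the kinase Camk2d (log2 fold change 0.44, and 0.16 without replicate 3). Without that heart the list held 1 higher and 1 lower, beside 1.91% and 4.99%. None of 13 angiotensin and adrenergic receptor genes did. Ccn2, a matricellular growth factor, was at 166, 74, 150 and 52.4 CPM in controls and 95.5, 121 and 733 CPM under Ang/PE, a log2 difference of 1.52 that became -0.04 without replicate 3.

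Ang/PE replicate 3 stood apart over a larger set of genes. It was the highest of the 7 hearts by more than 2-fold on log2(CPM + 1) in 130 genes (0.765% of those tested). Each other heart held between 0 and 4 such genes, and Ang/PE replicates 1 and 2 held 0. Because this set was chosen from these values, it is described and not tested. Its leading members were heat shock genes, immediate early genes and genes of stretched muscle. Hspa1a, an inducible heat shock protein, was at 0.731 to 2.38 CPM in controls, at 2.4 and 2.1 CPM in Ang/PE replicates 1 and 2 and at 347 CPM in replicate 3. Its near-identical copy Hspa1b was at 303 CPM there, and reads may be split between the copies. Atf3, a stress-induced transcription factor, was at 4.02, 6.66 and 340 CPM under Ang/PE against 3.6 to 15.3 CPM in controls.

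The same heart held 34.7 CPM of Fos, where the other 2 Ang/PE hearts had 1.74 and 2.1 CPM. The nuclear receptor Nr4a3 was at 4.74, 5.82 and 95.9 CPM, the growth factor Hbegf at 14.2, 16.3 and 210 CPM, and the muscle protein Xirp1 at 288, 286 and 3099 CPM in the 3 Ang/PE hearts. All 4 were within the control range in replicates 1 and 2. Of 25 heat shock and ER stress genes 4 had an unadjusted p below 0.05, all higher, and of 23 immediate early genes 2, beside 3.8% of all genes. Without replicate 3 both counts were 0, beside 1.91%. Without it the log2 fold change was -0.67 for Atf3, -0.24 for Fos and -0.05 for Xirp1.

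The hearts labelled MCT1KO had no part in the margin that chose the set, but they counted in the low-count filter before it. Low-abundance members may have passed that filter through MCT1KO Ang/PE hearts, which was not tested. The median log2 ratio of the 130 genes to the WT no pump mean was 1.79 in Ang/PE replicate 3, -0.01 and 0.105 in the other 2 WT Ang/PE hearts, and between -0.077 and 0.102 in the 6 WT saline hearts. It was between -0.138 and 0.048 in the 3 MCT1KO no pump hearts. In the 5 MCT1KO Ang/PE hearts it was 1.436, 0.667, 0.245, 0.453 and 0.44, so all 5 lay above the 3 MCT1KO controls, and 1 reached a level near that of the WT heart.

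**Figure D2:**
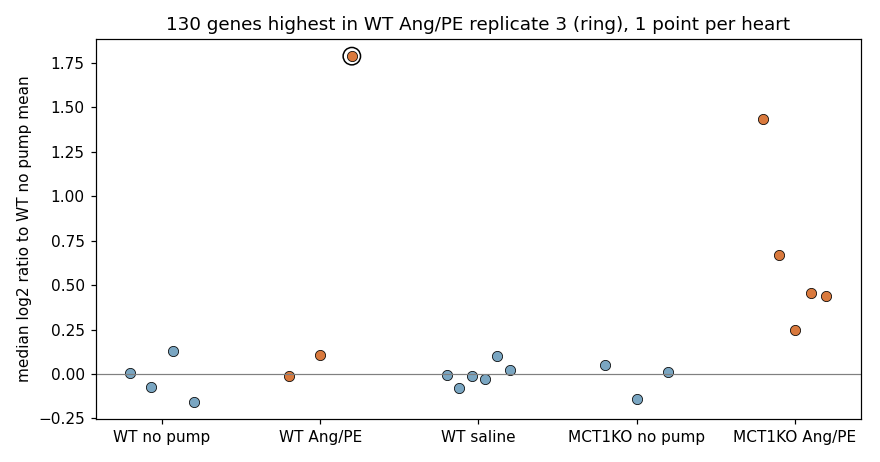
Median log2 ratio of the 130 genes to the WT no pump mean, 1 point per heart, by group, with WT Ang/PE replicate 3 ringed. The ringed heart is at 1.79 and was used to choose the genes. The MCT1KO Ang/PE hearts, which counted only in the low-count filter, lie between 0.245 and 1.436.

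Promoters of these genes are shown because they moved together in that heart. RefSeq windows (GRCm38.p6) of the 250 bases before the start site were found for 14 of the 20 protein-coding genes with the widest margin, predicted gene models and Riken clone names left out. A set of 5 motifs was searched on both strands: the cyclic AMP element TGACGTCA, the AP-1 site TGACTCA, the heat shock element (GAA, TTC and GAA in a row, each 2 bases apart), the CArG box and the letters TATAAA. Full matches were present in 0, 2, 0, 0 and 3 of the 14 genes, and in 1.77%, 5.16%, 0.514%, 1.62% and 14.3% of 27025 genes with windows of this length. Partial or variant sites were not counted, so a 0 does not mean that such sites are absent. The AP-1 letters were in Klhl40, a muscle kelch protein, and Srxn1, an antioxidant reductase. Windows of Ankrd1, Myh7, Nppa and Rcan1, which are outside the 20, were looked at after their values were seen. The 1 window of Ankrd1, the 2 of Myh7, the 1 of Nppa and the first of Rcan1 held neither the cyclic AMP nor the AP-1 letters, and the second of Rcan1 held both. Capitals mark the motifs, and the windows read 5′ to 3′ on the gene's strand: Klhl40 at chr9:121777357-121777606 (plus), Srxn1 at chr2:152105274-152105523 (plus) and the second of 2 Rcan1 windows at chr16:92400079-92400328 (minus). A match is a description of letters only.
Klhl40: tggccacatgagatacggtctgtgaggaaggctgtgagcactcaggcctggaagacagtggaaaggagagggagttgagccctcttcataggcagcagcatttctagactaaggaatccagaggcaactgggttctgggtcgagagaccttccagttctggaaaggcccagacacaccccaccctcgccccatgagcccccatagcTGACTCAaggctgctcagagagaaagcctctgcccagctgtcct
Srxn1: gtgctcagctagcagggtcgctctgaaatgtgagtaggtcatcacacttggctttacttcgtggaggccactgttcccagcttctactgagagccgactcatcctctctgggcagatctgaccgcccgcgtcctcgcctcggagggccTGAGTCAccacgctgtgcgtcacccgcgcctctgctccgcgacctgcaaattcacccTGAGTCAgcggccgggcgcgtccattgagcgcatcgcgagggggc
Rcan1: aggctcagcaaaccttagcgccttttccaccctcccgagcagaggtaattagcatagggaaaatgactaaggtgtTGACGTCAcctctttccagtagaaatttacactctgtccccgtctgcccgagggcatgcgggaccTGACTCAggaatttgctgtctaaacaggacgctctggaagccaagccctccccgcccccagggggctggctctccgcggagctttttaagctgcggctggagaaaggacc

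Klhl40 was at 20.3, 18.9 and 218 CPM in the 3 Ang/PE hearts and Srxn1 at 18.5, 20.3 and 112 CPM. Both stayed between 14.8 and 21 CPM in the controls. These promoters thus belong to genes that were high in 1 heart of the 7.

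Matrix genes showed a mixed picture. Postn, periostin of the activated fibroblast, was at 27.1, 53.9, 64.8 and 37.1 CPM in controls and at 80.2, 79.7 and 158 CPM under Ang/PE, with no overlap between groups (log2 difference 1.22 with SE 0.73, adjusted p 0.64 in edgeR). The matrix glycoprotein Thbs4 was at 3.54, 4.34, 6.28 and 3.19 CPM against 12, 7.78 and 33.2 CPM (log2 fold change 2.02, and 1.19 without Ang/PE replicate 3). Cilp, a matrix protein of cartilage and scarred heart, was at 6.36, 15.1, 42.9 and 4.65 CPM against 56.6, 48.2 and 108 CPM. These 2 were picked after their values were seen, and for Cilp the controls alone spanned 4.65 to 42.9 CPM. The abundant collagens Col1a1 and Col3a1 did not follow: Col1a1 differed by -0.08 and Col3a1 by -0.16 on the log2 scale, with overlapping hearts.

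Of 28 matricellular and activated fibroblast genes tested, 3 had an unadjusted p below 0.05, all higher (background 3.8%). In 4 of the 28, all Ang/PE hearts were above all controls (background 3.93%). Without Ang/PE replicate 3 these counts were 1 and 4, beside 1.91% and 8.21% of all genes. The median log2 fold change of 0.23 became -0.04 without Ang/PE replicate 3 and 0.55 without no pump replicate 3. Tnc, tenascin C, was at 1.25, 3.41, 1.69 and 1.3 CPM against 3.24, 3.58 and 8.17 CPM, and overlapped (log2 fold change 1.38, edgeR adjusted p = 0.43, and 0.83 on the log2 scale without Ang/PE replicate 3). Of 22 collagens, 1 had an unadjusted p below 0.05, beside 3.8% of all genes: Col4a2 of the basement membrane (log2 fold change 0.32, and 0.19 without Ang/PE replicate 3). All Ang/PE hearts lay above all controls for 3 of 22 (background 3.93%), the low-abundance Col8a2, Col11a1 and Col12a1, named after their values were seen. Col12a1 was at 1.57, 3.02, 4.53 and 1.46 CPM against 7.25, 7.5 and 14.1 CPM (log2 fold change 1.86, SE 1.02, edgeR adjusted p = 0.61). The largest value in the list was 2.74, for Col11a1, which was at 0 to 0.349 CPM in controls and 1.02, 0.351 and 1.21 CPM under Ang/PE.

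Many genes of energy metabolism lay lower under Ang/PE by small amounts. Of 42 nuclear-encoded respiratory chain subunits tested, all 42 had a negative log2 fold change, 18 an unadjusted p below 0.05 (background 5.39%) and 23 all Ang/PE hearts below all controls (background 6.96%). Without replicate 3, 17 had an unadjusted p below 0.05 (background 4.99%) and 28 lay below all controls (background 11.7%). Their median was -0.26, and -0.28 without replicate 3. Cycs, cytochrome c, was at 364, 348, 345 and 369 CPM in controls and at 240, 250 and 250 CPM under Ang/PE, with an edgeR adjusted p of 0.43 for the difference of -0.53 in log2 units (SE 0.15). Ndufa1 of complex I was at 72.7, 63.1, 84.8 and 73.8 CPM against 49.5, 52.6 and 55.7 CPM. In neither gene did a heart of one group reach the other. In the WT saline hearts Cycs was at 235 to 293 CPM and Ndufa1 at 45.7 to 56 CPM, also under the lowest control.

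Transcript length moved with these values. Over all genes with a length, the median log2 fold change was -0.16 under 1 kb and 0.05 at 4 kb or more, and 15.4% against 3.13% of genes had all Ang/PE hearts below all controls. The respiratory chain genes had a median length of 1374 bases, and 16 of 42 were under 1 kb. With offsets for GC content and length their median log2 fold change was -0.12, and in the hearts that expressed Xist alone it was -0.18. The 39 cytosolic ribosomal protein genes, with a median length of 1120 bases, were likewise all negative, with a median of -0.23 that became -0.11 with the offsets. Their count turned on Ang/PE replicate 3: 6 had an unadjusted p below 0.05 and 3 lay below all controls with all hearts, beside 5.39% and 6.96% of all genes. Without it they were 19 and 36, beside 4.99% and 11.7%. In hearts labelled MCT1KO the ribosomal protein median was 0.06 and the respiratory chain median -0.13.

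Genes of fatty acid uptake and oxidation are longer, with a median of 2914 bases, but 2 were under 1 kb, including Fabp3 (823 bases). Of 34 tested, 31 were negative, 8 had an unadjusted p below 0.05, all lower (background 5.39%), and 9 lay below all controls (background 6.96%). Without Ang/PE replicate 3 these counts were 5 and 11, beside 4.99% and 11.7%. Fabp3, the fatty acid carrier of heart muscle, was at 2073, 1798, 2049 and 2189 CPM in controls and 1390, 1462 and 1439 CPM under Ang/PE (log2 fold change -0.50, SE 0.14, edgeR adjusted p = 0.43). The fatty acid transporter Cd36 was at 2071, 2141, 2229 and 2446 CPM against 1373, 1465 and 1877 CPM. The list's median of -0.25 was -0.08 in the Xist-expressing hearts alone, and -0.35 in hearts labelled MCT1KO. In the 6 WT saline hearts Fabp3 ranged from 1145 to 1659 CPM and Cd36 from 1231 to 1493 CPM, both also under the lowest control.

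Among 24 genes of lactate and pyruvate handling, 5 had an unadjusted p below 0.05, all lower, beside 5.39% of all genes (3, beside 4.99%, without Ang/PE replicate 3). Mpc1, a subunit of the mitochondrial pyruvate carrier, was at 190, 176, 180 and 208 CPM against 140, 137 and 156 CPM (log2 fold change -0.38). Its transcript is also under 1 kb, at 961 bases. Dld, the shared dehydrogenase subunit of the pyruvate and 2-oxoglutarate complexes, was at 355 to 406 CPM in controls and 278, 318 and 298 CPM under Ang/PE. In the WT saline hearts Mpc1 was at 89.8 to 154 CPM and Dld at 234 to 330 CPM, also under the lowest control. In the glycolysis list 2 of 20 genes had an unadjusted p below 0.05, both higher, beside 3.8% of all genes. Pfkp, a phosphofructokinase isoform, was at 51.9, 55.1, 56.8 and 47.4 CPM and at 75.2, 72.3 and 107 CPM, without overlap (log2 fold change 0.69, SE 0.17, edgeR adjusted p = 0.43). The WT saline hearts held 45.5 to 70.1 CPM of Pfkp, overlapping the controls without a pump.

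**Figure D3:**
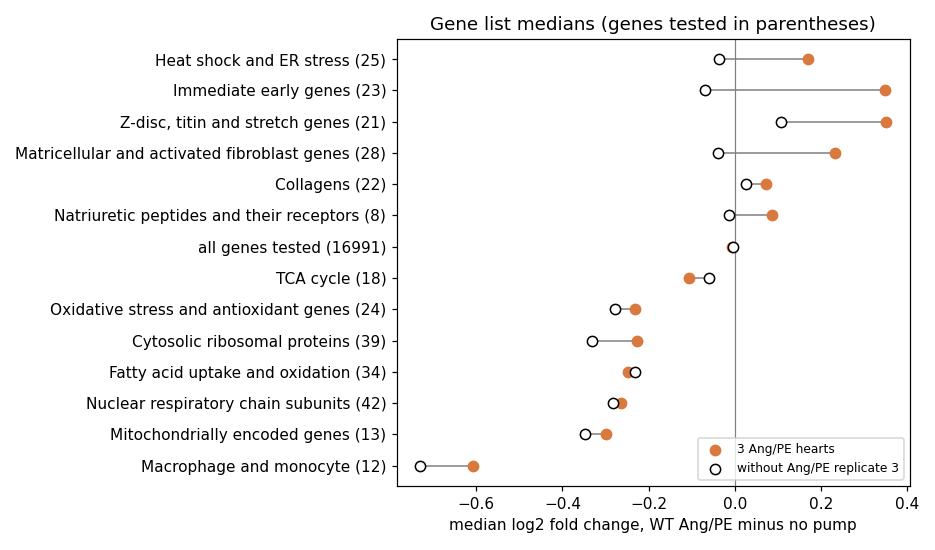
Median log2 fold change of 13 gene lists and of all 16991 genes, with all hearts (filled) and without Ang/PE replicate 3 (open). The heat shock, immediate early, matricellular and natriuretic peptide lists cross 0 without that heart, while the respiratory chain and fatty acid lists stay near -0.26 and -0.25.

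Most macrophage markers had lower means under Ang/PE, with overlapping hearts. Of 12 tested, 11 were negative and 6 had an unadjusted p below 0.05, all lower, beside 5.39% of all genes (7, beside 4.99%, without Ang/PE replicate 3), with a median log2 fold change of -0.61. Csf1r, the receptor that macrophages need to survive, was the 1 marker with all Ang/PE hearts below all controls (4 markers without replicate 3; background 6.96% and 11.7%), at 62.3, 81.4, 89.3 and 94.3 CPM against 45.3, 52.9 and 60.8 CPM. The summed level of the 12 markers was 367 to 718 CPM in controls and 347 to 486 CPM under Ang/PE, and no pump replicate 1 lay at the low end for Cd163 (28.9 CPM against 56.5 to 63.7 CPM in the other 3 controls). Folr2, a receptor of resident macrophages, was at 8.69, 13.5, 13.3 and 13.6 CPM against 6.29, 7.15 and 5.4 CPM. In the WT saline hearts Folr2 was at 7.12 to 9.47 CPM and Cd163 at 22 to 33 CPM, overlapping only no pump replicate 1. In hearts labelled MCT1KO the markers' median was 0.17.

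Of 24 oxidative stress and antioxidant genes tested, 18 were negative and 6 positive (Srxn1 the highest, at 1.36), and 8 had an unadjusted p below 0.05, all lower, beside 5.39% of all genes. Their median was -0.23, and 0.10 in hearts labelled MCT1KO. The 24 named protein-coding genes of smallest p, taken after the test had called none, comprised 18 lower and 6 higher genes, all without overlap in WT hearts. Mgst1, a microsomal glutathione transferase, was at 29.1, 34.3, 35.8 and 30.8 CPM in controls and 16.4, 16.8 and 23.7 CPM under Ang/PE (log2 fold change -0.77, SE 0.14, edgeR adjusted p = 0.24). In the 6 WT saline hearts it ranged from 15.5 to 25.1 CPM, also below the controls without a pump. For 12 of the 24 genes the median of the WT saline hearts lay below the lowest no pump control. Angpt1, a ligand that steadies vessels, was at 42, 48.7, 46.6 and 43.8 CPM against 27.8, 23.1 and 25.9 CPM (log2 fold change -0.82). Ccl11, the eosinophil chemokine, was at 2.28, 1.71, 2.94 and 3.14 CPM against 0.539, 0.281 and 0.782 CPM (log2 fold change -2.22, SE 0.44, edgeR adjusted p = 0.24). Penk, which encodes the enkephalin precursor, was at 9.22, 4.38, 13 and 8.76 CPM against 3.3, 2.67 and 1.92 CPM (log2 fold change -1.74). In the WT saline hearts Angpt1 was at 21.6 to 45.5 CPM, Ccl11 at 0.792 to 3.13 CPM and Penk at 3.07 to 11.4 CPM. These ranges overlapped those of the controls without a pump.

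The hearts labelled MCT1KO, none of which is in the WT comparison, were compared in the same fit. Both contrasts therefore share its spread estimates and are not fully separate. In the MCT1KO contrast 58 genes (0.341%) passed at an adjusted p below 0.05 in edgeR's quasi-likelihood test, 27 higher and 31 lower. Of the 24 WT genes, 4 were among them. Ccl11 fell from 3.1, 1.58 and 2.38 CPM to 0.0695 to 0.638 CPM (log2 fold change -2.70, edgeR adjusted p = 0.012), and Penk fell from 9.29, 6.48 and 9.12 CPM to 0.973 to 2.62 CPM (-2.12, adjusted p = 0.012). Prrg1, a membrane protein with a Gla domain, fell by 0.71 on the log2 scale, and Pfkp rose by 1.01 (adjusted p = 0.018 and 0.016). Xist was unbalanced in these hearts too, being expressed in 0 of 3 controls and 4 of 5 Ang/PE hearts. With Xist as a covariate 0 genes were called in hearts labelled MCT1KO, and the adjusted p was 0.18 for Ccl11 and 0.19 for Penk, while their log2 fold changes were -2.62 and -1.95.

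**Figure D4:**
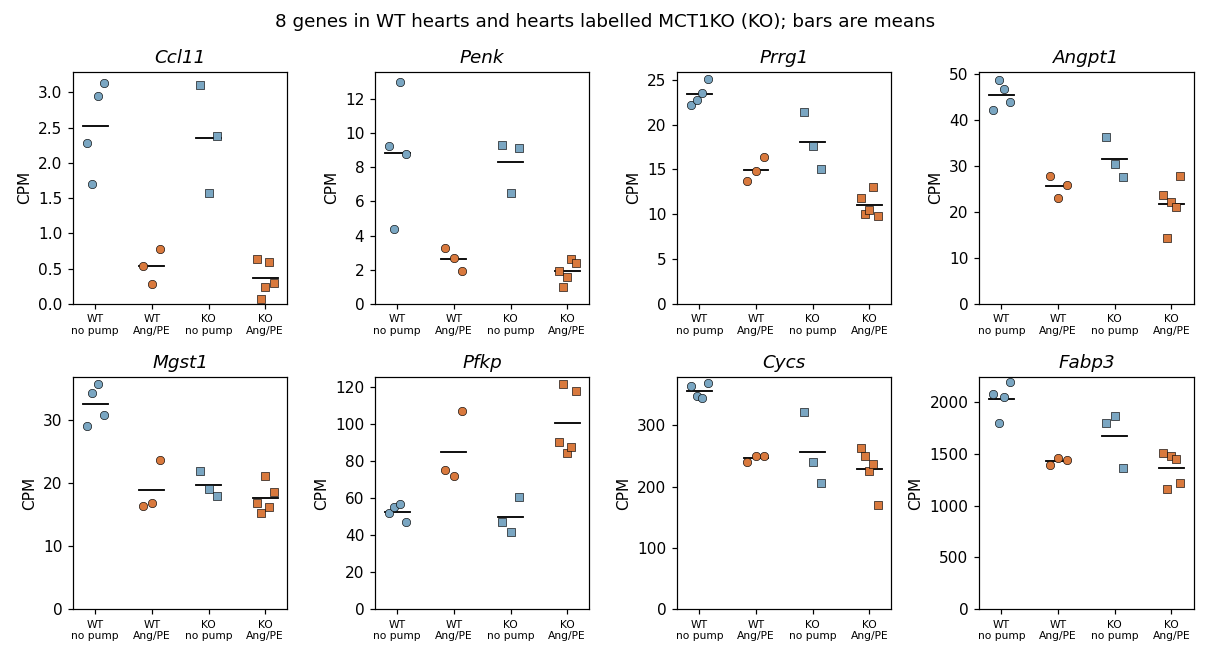
CPM of 8 genes in each WT heart (circles) and MCT1KO heart (squares), with group means as bars. Ccl11, Penk, Prrg1 and Pfkp separate Ang/PE from no pump in both genotypes, whereas Angpt1, Mgst1, Cycs and Fabp3 overlap in hearts labelled MCT1KO.

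The sign was the same in WT hearts for 56 of those 58 genes (96.6%), as for 58.9% of all genes. All 27 higher genes were higher and 29 of 31 lower genes lower. An unadjusted p below 0.05 with the same sign in WT hearts was reached by 23, beside 9.19% of all genes in either direction. For 19 of the same sign the WT groups did not overlap, beside 10.9% of all genes. The part of the shared spread estimates and of the Xist imbalance, in the same direction in both genotypes, in these counts was not tested. Lvrn, an aminopeptidase, was at 7.48, 8.82, 10.7 and 13.2 CPM against 4.67, 3.58 and 2.7 CPM in WT (log2 fold change -1.45) and fell by 3.16 in MCT1KO. Fgf10, a growth factor of mesenchymal cells, was of low abundance, at 0.448 to 1.19 CPM against 0.14 to 0.3 CPM in WT (log2 fold change -1.87). It fell by 2.62 in MCT1KO, to between 0.0695 and 0.449 CPM under Ang/PE. Kcna2, a potassium channel, was at 4.08, 4.24, 3.14 and 5.51 CPM against 2.58, 2.6 and 2.63 CPM in WT and fell by 1.68 in MCT1KO. The 2 exceptions in sign were the clock gene Per3 (0.14 in WT, -1.70 in MCT1KO) and the efflux pump Abcb1a (0.06 and -0.58).

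No difference of the response between genotypes passed the edgeR test: 0 of 16991 genes (0%) had an adjusted p below 0.05. An unadjusted p below 0.05 was reached by 907, near the number that this threshold gives when no gene differs. The smallest adjusted p was 0.28. That smallest value belonged to Syne2, a nuclear envelope spectrin repeat protein. It was at 134, 153, 140 and 145 CPM in WT controls and 201, 170 and 205 CPM under Ang/PE, whereas MCT1KO controls were at 197, 196 and 197 CPM and MCT1KO Ang/PE hearts at 135 to 174 CPM. DESeq2 called Syne2 among 5 genes. The others were Per3, Gm12312 and the sex-linked Xist and Uty.

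**Figure D5:**
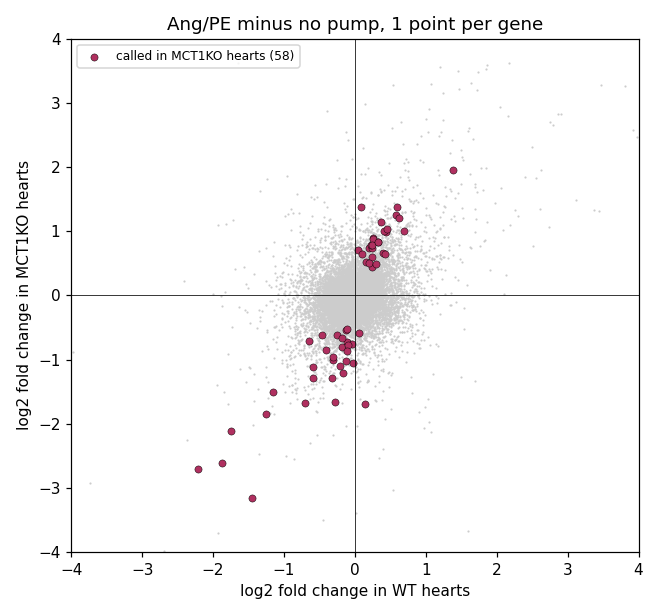
Log2 fold change of Ang/PE against no pump in WT hearts (horizontal) and hearts labelled MCT1KO (vertical), 1 point per gene, with the 58 genes called in hearts labelled MCT1KO in colour. Of these, 56 lie in the quadrants of equal sign, and 18 uncalled genes beyond 4 on either axis are not drawn.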

How the data were processed

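RNA was isolated from whole mouse hearts, depleted of ribosomal RNA and made into strand-specific libraries, per the labels' protocols. The authors deposited 1 table of raw read counts per gene for 25 hearts. The submitters' processing notes name STAR 2.7.9a, cutadapt 1.16, featureCounts 1.6.3, DESeq2 1.42.1 and the build GRCm39; the annotation and the strand setting are not given in the sources used here, so overlapping and antisense genes are uncertain. Of 56941 genes, 51948 had a symbol.

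The main model was edgeR 4.0.16 (R 4.3.3; TMM, filterByExpr, glmQLFit robust, glmQLFTest, two-sided, Benjamini-Hochberg) on 15 hearts in 4 groups without saline, with 11 residual degrees of freedom. CPM were scaled by TMM over the 25 hearts. DESeq2 1.42.0 was an alternative, with other scalings, filters, covariates, offsets from GENCODE M21 (GRCm38) and each heart left out. The script was tested on simulated data. Named genes were a fixed panel, the 2 of smallest p in each gene list (0 genes being called), and genes picked after their values were seen, which are said to be so or given as the smallest p, the largest margin or the MCT1KO calls. The members and lists were chosen with earlier results of these data known.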

Additional observations from a re-analysis of the deposited data

Results flagged for a closer look

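Of 59 groups of 4 to 6 hearts examined for 1 heart far from the rest, 2 were set apart, where chance sets apart about 1 in 20. Both concern no pump replicate 1. Rcan1 was at 94.1 CPM there and at 58 to 61.6 CPM in the other 3 controls. Folr2 was at 8.69 CPM there and at 13.3 to 13.6 CPM in the others.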

How the results depend on the processing

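The count of 0 WT genes stayed at 0 in all alternatives but these: DESeq2 called 26, the fit without a low-count filter called 6 (1 higher, 5 lower), and leaving out 1 of the 15 hearts gave 0 to 1 (Mgst1 without WT Ang/PE replicate 3, Angpt1 without MCT1KO Ang/PE replicate 2). At an unadjusted p the main model had 1561 genes. The genotype difference was 0, with 5 in DESeq2 and 0 to 1 when a heart was left out (Gm12312 without MCT1KO Ang/PE replicate 5). The 58 MCT1KO calls became 426 in DESeq2, 151 without the filter, 89 with all 25 hearts, 22 with the 8 MCT1KO hearts alone, 0 with Xist as a covariate and 7 to 115 when a heart was left out. The lowest, 7, came without MCT1KO no pump replicate 2 and the highest without WT Ang/PE replicate 3; it was 17 without MCT1KO no pump replicate 1, 30 without MCT1KO Ang/PE replicate 4 and 38 without replicate 5. The causes were not tested.

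Same-numbered WT hearts correlated at 0.0533, -0.0521 and 0.181, so the numbers were not taken to pair them. With the replicate block 0 WT genes, 0 genotype differences and 13 MCT1KO genes were called, and 0, 0 and 14 with GC and length offsets in the replicate block fit. Unadjusted WT calls numbered 1140 with the block.

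The matricellular median of 0.23 was 0.0202 in Xist-expressing hearts and -0.0384 to 0.549 when a heart was left out. The fatty acid median was -0.0767 in Xist-expressing hearts. The respiratory chain median was -0.18 in those hearts, -0.12 with GC and length offsets and -0.11 with offsets and the replicate block. The medians of 6 further lists (Z-disc, immediate early, heat shock, antioxidant, ribosomal protein and macrophage) moved by less than the spread between hearts. That spread includes WT Ang/PE replicate 3, so it cannot judge the fits that leave this heart out. Without it the immediate early median went from 0.349 to -0.0705 and the heat shock median from 0.17 to -0.0365. The Z-disc, antioxidant, ribosomal protein and macrophage medians kept their sign there. Among the other lists plotted, the natriuretic peptide median of 0.0863 was -0.0132 without WT Ang/PE replicate 3, the collagen median of 0.072 was -0.0851 in Xist-expressing hearts, and the median of mitochondrially encoded genes, -0.299, was -0.0522 with the offsets and -0.0124 with offsets and the replicate block.

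Of 1071 alternative values for 54 named genes, 16 changed sign. Xist was -0.00589 with itself as covariate and -0.048 in Xist-expressing hearts. When a heart was left out the log2 fold change ran from -0.72 to 0.76 for Nppb, -0.0358 to 1.95 for Ccn2, -0.67 to 4.37 for Atf3, -0.0467 to 2.52 for Xirp1, -0.24 to 3.03 for Fos, -0.0165 to 1.75 for Srxn1, -0.166 to 0.0224 for Col1a1, -0.28 to 0.0285 for Col3a1, -0.036 to 0.155 for Slc16a1, -0.0226 to 0.227 for Atp2a2 and -0.12 to 0.36 for Per3. Thinning all libraries to the smallest also gave 0 WT genes. The common biological coefficient of variation was 0.18.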
